A study of Mus musculus with 6 samples.

Results

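Chemokine and chemokine receptor transcripts were examined in bone endothelial cells (BECs) of 12-week mice. The rule that picks the genes uses their symbols: protein-coding genes of GRCm39 named Ccl, Cxcl, Xcl or Cx3cl for the ligands and Ccr, Cxcr, Xcr or Ackr for the receptors. Cxcl12, Cxcr2, Cxcr4 and Ccr2 were left out by the rule. This gave 54 genes, 36 ligands and 18 receptors, of the 37991 genes in the table, 19983 of which are annotated as protein-coding. A further 5 annotated ligands (Ccl21a, Ccl21b, Ccl21d, Ccl21e and Ccl27b) could not be matched to the table and were not analysed here.

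The study compared bone endothelium of males with that of females. Here 3 female and 3 male libraries were used, all from c57/Bl6 animals of 12 weeks. The labels give the tissue as fresh tibia and name neither a treatment nor an altered allele for either sex. Cells had been taken by endomucin expression, which sinusoidal and capillary endothelium carries. According to the methods of the study, bones were crushed and digested, red cells were lysed, and cells bound to beads carrying an endomucin antibody were kept. The samples with the best RNA were then chosen for sequencing, 3 of each set. Captions of the study give n=3 beside the mice of each age. Nothing in the labels says that libraries came from separate animals, so the p-values measure only the spread between these libraries, which may be technical.

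Chemokines are small secreted proteins that draw leukocytes along a gradient, and they signal through G protein-coupled receptors on the moving cell. They are grouped by the spacing of their first cysteines into CC, CXC, XC and CX3C families. Endothelium presents them on its surface to passing leukocytes, and atypical receptors bind or carry them without coupling to G proteins. In bone marrow this system helps to hold developing blood cells in place and to release mature ones.

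Total counts ran from 47678806 to 58325745 per library. A floor of 3 counts corresponded to between 0.0477 and 0.0639 CPM (counts scaled for library size by TMM, the level used throughout), and it covers counting error only. No pair of libraries agreed within sampling noise. The label of the cells was checked with 19 endothelial markers, all of which were detected. Their summed level was 405 to 591 CPM in females and 245 to 365 in males. Emcn, the gene of endomucin, had 8.68, 5.35 and 10.5 CPM in female replicates 1, 2 and 3 and 4.21, 3.09 and 6.73 in male replicates 1, 2 and 3. The 15 neutrophil markers summed to between 19118 and 23326 CPM in females and between 32385 and 44317 in males, far above the endothelial sum in each library. Erythroid markers summed to 9153 to 13499 CPM in females and 13989 to 20343 in males, and those of megakaryocytes and platelets to 55.4 to 212 and 40.7 to 107. Transcripts of marrow blood cells were thus abundant in these libraries, and the levels given for chemokine genes are those of the whole preparation.

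**Figure D1:**
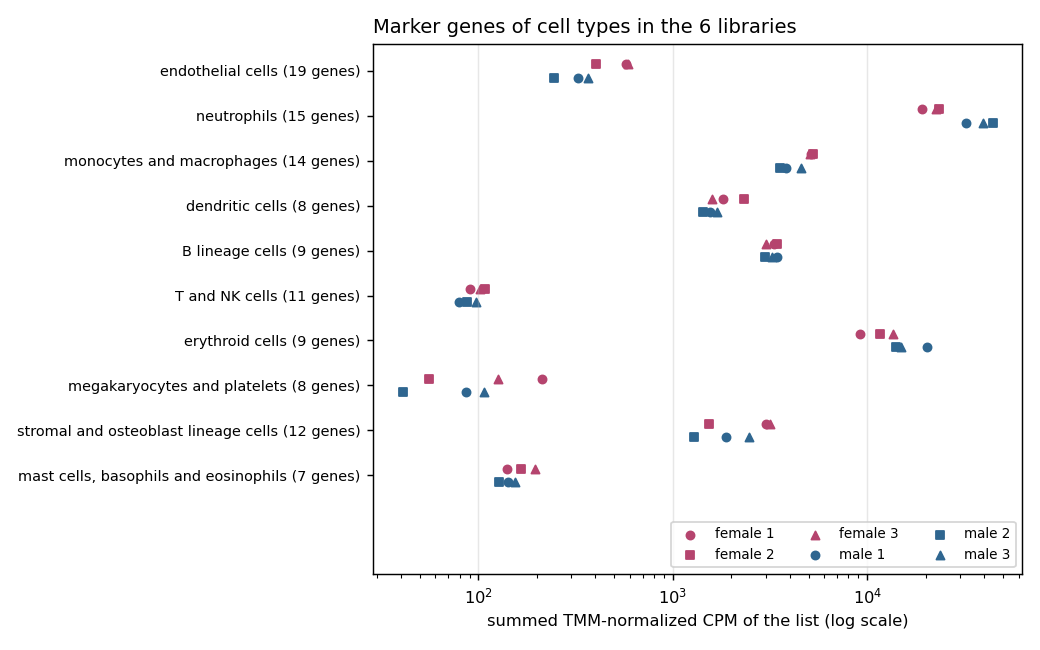
Summed level of marker genes in each library, in CPM after TMM scaling on a log axis, with 1 row for each cell type and 1 symbol for each of the 3 female (red) and 3 male (blue) libraries. Neutrophil and erythroid sums were higher in every male library than in any female library, and endothelial and monocyte and macrophage sums were higher in every female library.

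Of the 54 genes, 41 passed the filter on low counts, 25 ligands and 16 receptors. Of these, 38 were above the filter's level of 0.199 CPM in all 6 libraries. Cxcl13 and Cxcl5 were above it in 3 female libraries and 1 male library, so they passed the filter through the females, and Ackr3 was above it in 2 female and 3 male libraries. The other 13 were Ccl1, Ccl11, Ccl17, Ccl20, Ccl21f, Ccl26, Ccl28, Cxcl1, Cxcl3, Cxcl15, Cxcl17, Ccr8 and Ccr10. The highest of them in any library was Ccl11 at 0.445 CPM, from 28 counts in female replicate 1. Ccl20, Ccl26, Ccl28 and Cxcl17 had no count in any library, which allows a level of up to 3 counts in each. The mean level was at least 10 CPM for 12 of the 54 genes and under 1 CPM for 21.

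With edgeR, none of the 41 tested genes had a sex difference past the adjusted threshold of 0.05, which 0.0411% of all 19480 genes tested passed. Ccr1, a receptor of inflammatory CC chemokines, and its ligand Ccl6 had the lowest edgeR p-values, and both were higher in every male library than in any female library. At an unadjusted p under 0.05 there were 9 of 41, or 22.0%, against 9.79% of all genes. These were Ccr1, Ccl6, Cxcr1 and Ccl27a, higher in males, and Ccr3, Ackr2, Ccl22, Cxcl13 and Cxcl10, higher in females, of which Cxcl13 passed the filter through the females. DESeq2's Wald test, which the study used, gave 2 genes at an adjusted p under 0.05, Ccr1 and Ccl6, of the 38 that had an adjusted p, against 2.04% of all genes. The call for these genes depended on the fit, and not on the tool alone. With the replicate number as a block edgeR called both, and with no filter on low counts it called Ccr1.

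Female and male libraries were fully separated for 11 of the 41 genes, or 26.8%, against 14.5% of all genes. There were 5 with all male libraries higher (Ccr1, Ccl6, Cxcr1, Ccl27a and Ccr9) and 6 with all female libraries higher (Ccr3, Ackr2, Ccl22, Cxcl9, Cxcr3 and Cxcr6). Receptors made up 7 of them, of 16 tested, and ligands 4, of 25 tested. The difference between receptors and ligands was not tested. The median log2 fold change of the 41 genes, male over female, was 0.04, with 21 above 0 and 20 below, beside a median of -0.00125 over all genes. The median size of the change regardless of sign was 0.36 on the log2 scale, beside 0.19 over all genes. Summed over the 54 genes, the level was 864, 930 and 909 CPM in the females and 827, 888 and 1069 in the males, so the total overlapped between the sexes. In bulk samples, fewer cells of a type and less RNA per cell cannot be told apart, and this holds for each difference below.

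**Figure D2:**
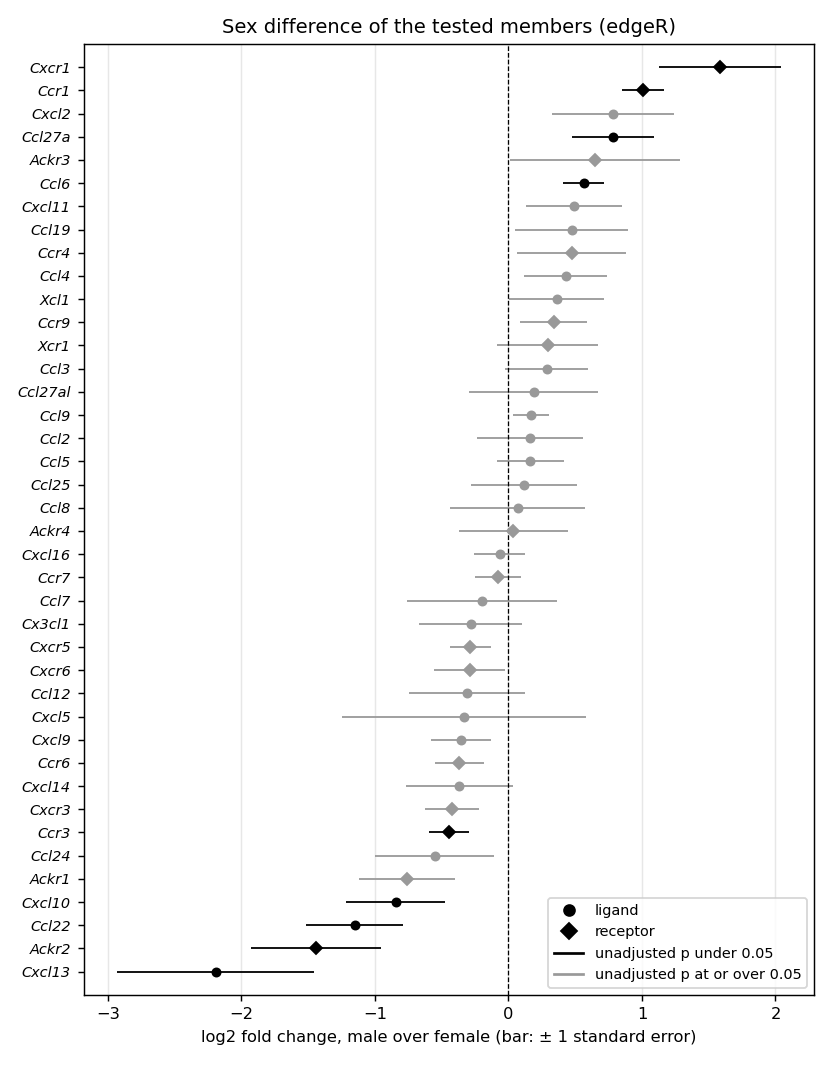
Log2 fold change of 40 tested genes, male over female, from edgeR, with bars of 1 standard error, ligands as circles and receptors as diamonds. The 9 genes in black had an unadjusted p under 0.05, and none had an adjusted p under 0.05.

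Sequences just before the annotated starts of 4 genes are shown because these genes carry the sex comparison or the contrast between neighbours: Ccl6 and Ccr1 were higher in males, Ccr3 lies beside Ccr1 and was higher in females, and Cxcl10 belongs to the interferon-induced ligands. They are from RefSeq on GRCm38.p6, 250 bases each, read 5′ to 3′ on the strand of the gene. Capitals mark every match, on either strand, to the 6 motifs searched: a TATA box (TATAAA), an Ets type (GAGGAA), a C/EBP type (TTNNGNAA), a GAS type (TTCNNNGAA), an ISRE type (AAANNGAAA) and an NF-kB type motif. Ccl6 is at chr11:83593088-83593337 on the minus strand and held none of them. Ccr1 is at chr9:123968693-123968942 on the minus strand, Ccr3 at chr9:124021721-124021970 on the plus strand, and Cxcl10 at chr5:92348890-92349139 on the minus strand.
Ccl6: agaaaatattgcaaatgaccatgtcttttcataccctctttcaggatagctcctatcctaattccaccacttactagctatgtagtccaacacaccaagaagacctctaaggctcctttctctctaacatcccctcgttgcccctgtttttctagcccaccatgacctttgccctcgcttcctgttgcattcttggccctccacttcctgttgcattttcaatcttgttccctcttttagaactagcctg
Ccr1: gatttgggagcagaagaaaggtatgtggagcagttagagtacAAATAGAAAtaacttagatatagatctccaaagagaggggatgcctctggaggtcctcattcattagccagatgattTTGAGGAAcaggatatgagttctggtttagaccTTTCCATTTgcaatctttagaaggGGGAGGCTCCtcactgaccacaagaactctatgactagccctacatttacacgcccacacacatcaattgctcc
Ccr3: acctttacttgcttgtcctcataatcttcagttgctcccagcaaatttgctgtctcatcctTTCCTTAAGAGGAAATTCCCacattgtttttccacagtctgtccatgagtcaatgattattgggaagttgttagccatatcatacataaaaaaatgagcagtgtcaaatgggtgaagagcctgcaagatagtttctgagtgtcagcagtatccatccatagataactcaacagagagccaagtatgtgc
Cxcl10: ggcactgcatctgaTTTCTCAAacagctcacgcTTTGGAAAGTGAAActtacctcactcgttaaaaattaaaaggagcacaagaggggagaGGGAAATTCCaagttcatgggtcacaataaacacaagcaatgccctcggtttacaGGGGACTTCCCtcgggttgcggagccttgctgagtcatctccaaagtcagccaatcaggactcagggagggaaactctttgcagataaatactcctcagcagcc

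In the Ccr1 window the Ets type match, at bases -129 to -124 from the start, lay inside a C/EBP type match. ISRE type matches stood at -208 to -200 and -98 to -90, and an NF-kB type match at -74 to -65. The Ccr3 window held 3 matches close together, C/EBP type at -189 to -182, Ets type at -181 to -176 and NF-kB type at -179 to -170, the last overlapping the one before it. In Cxcl10, NF-kB type matches began at -159, -104 and -103, the latter pair overlapping, and the ISRE type match at -212 to -204 overlapped a C/EBP type match. A window was found for 37 of the 54 genes. An NF-kB type match was present in 10 of the 37, or 27.0%, against 7.01% of all 27025 windows, and a TATA box in 11 of 37 against 13%. For the C/EBP type the figures were 17 of 37 and 36.9%, for the Ets type 11 of 37 and 23.1%, for the ISRE type 5 of 37 and 9.52%, and for the GAS type 3 of 37 and 7.18%. These matches are letters in a window, and binding was not measured.

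The inflammatory CC ligands, which recruit monocytes, neutrophils and other leukocytes, held the most abundant transcript of the 36 ligands. Per kilobase of exons, Ccl6 had a mean of 131 CPM over the 6 libraries (range 90.3 to 181). Cxcl14 followed with 21.5 (10.7 to 35.1), then Ccl9 with 12.5 (11.1 to 15.2), Ccl8 with 11.9 (5.12 to 20.1), Ccl5 with 11.1 (7.05 to 14.0) and Cxcl9 with 8.21 (4.40 to 9.50). The range of Ccl6 lay apart from those of all other ligands of the rule, whereas the ranges of Cxcl14, Ccl9, Ccl8 and Ccl5 overlapped each other. With the length of the canonical transcript, an alternative chosen after seeing the data, Ccl5 moved from rank 5 to rank 3 and Cxcl10 from rank 12 to rank 8, while Ccl6 and Cxcl14 kept ranks 1 and 2.

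Ccl6 is a CC ligand of rodents made by myeloid cells. The gene lies on chromosome 11 of GRCm39, 83478708 to 83483913, on the minus strand, and its exons overlap no other annotated gene. It had 164, 211 and 200 CPM in the female libraries, and 240, 282 and 329 CPM in the male libraries. The lowest male library was above the highest female library. The log2 fold change, male over female, was 0.56 with a standard error of 0.15, and the adjusted p was 0.253 in edgeR and 0.0342 in DESeq2. Ccl9, whose gene ends 5546 bases away and whose product also signals through Ccr1, had 34.4, 40.0 and 35.1 CPM in females and 34.8, 47.3 and 41.1 in males. These overlapped, with a log2 fold change of 0.17 and a standard error of 0.14 in edgeR. Within each library, the ratio of Ccl6 to Ccl9 CPM was 4.77, 5.28 and 5.70 in females and 6.89, 5.95 and 7.99 in males, which separated only narrowly and was not tested. Of the 4 neighbouring pairs read in this way, this pair and Ccr1 with Ccr3 had ratios that separated by sex, and Cxcl9 with Cxcl10 and Cxcl10 with Cxcl11 had ratios that overlapped.

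The other inflammatory CC ligands were far lower. Ccl5, which lymphocytes and platelets release, had 10.6, 14.4 and 7.24 CPM in females and 9.53, 13.7 and 12.9 in males. Ccl8, a monocyte attractant made by tissue macrophages, had 3.61, 10.4 and 3.90 in females and 2.64, 8.16 and 7.97 in males. Both overlapped between the sexes, and Ccl8 varied more within a sex than between them. Ccl3 and Ccl4, which activated macrophages make, ranged from 1.70 to 3.33 CPM and from 1.26 to 2.72 CPM. The monocyte attractants Ccl2, Ccl7 and Ccl12 ranged from 0.437 to 1.55 CPM. Of the 9 genes in this group, 1 had sexes that did not overlap, Ccl6, where 14.5% of all genes did not.

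**Figure D3:**
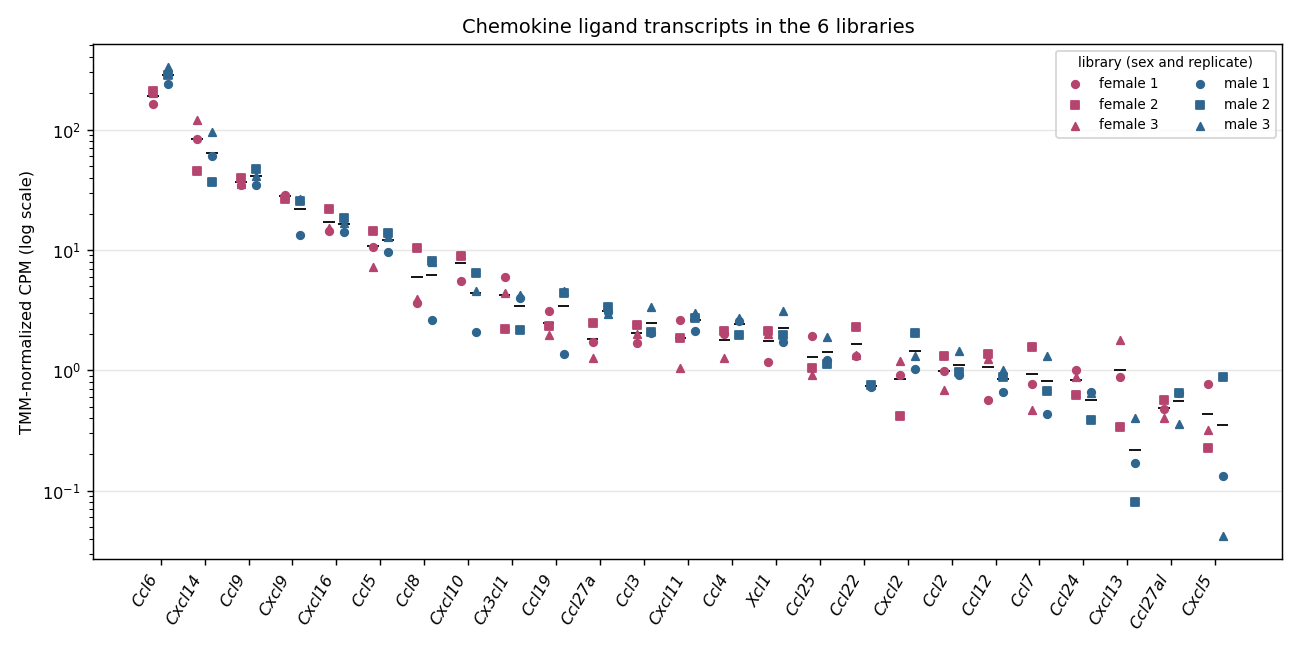
Level of the 25 tested ligands in each library, in CPM after TMM scaling on a log axis, ordered by their mean, with 1 symbol per library (female red, male blue) and a line at the mean of each sex. Ccl6 stood between 164 and 329 CPM, and the ligands to the right of Cxcl10 were under 5 CPM except for Cx3cl1 in female replicate 1, at 5.96.

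The interferon-induced CXC ligands Cxcl9, Cxcl10 and Cxcl11 attract activated T and NK cells through Cxcr3. Cxcl9 had 28.5, 26.3 and 28.7 CPM in females and 13.3, 25.8 and 26.3 in males. All males were below all females, but only male replicate 1 was far below, and the log2 fold change was -0.36 (SE 0.23) with an adjusted p of 0.649 in edgeR. Without male replicate 1 it was -0.10, and the highest male and lowest female library were at nearly the same level. Cxcl10 had 5.52, 8.84 and 9.12 CPM in females and 2.09, 6.45 and 4.53 in males. These overlapped, and the log2 fold change was -0.84 (SE 0.37), with an unadjusted p of 0.0456 and an adjusted p of 0.495 in edgeR. Male replicate 1 was the lowest library for both genes. Cxcl11 ranged from 1.04 to 3.01 CPM and overlapped between the sexes, with a log2 fold change of 0.49, against the direction of its neighbours. Exons of Cxcl10 overlap Art3 on the other strand, and those of Cxcl11 overlap a pseudogene, so reads could be shared.

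Among the remaining CXC and CX3C ligands of the rule, Cxcl14, a ligand made by epithelial and stromal cells, was the most abundant. Cxcl12, which the rule leaves out, was far higher, with a mean of 1643 CPM over the 6 libraries. Cxcl14 had 83.8, 45.6 and 120 CPM in females and 60.7, 36.8 and 95.8 in males. Replicate 2 was the lowest and replicate 3 the highest in each sex, and the sexes overlapped (log2 fold change -0.37, SE 0.40 in edgeR, and between -0.0066 without female replicate 3 and -0.77 without male replicate 3). The 12 markers of stromal and osteoblast lineage cells had the same order, with summed levels of 3018, 1541 and 3160 CPM in females and 1876, 1292 and 2451 in males. Most of this sum came from Cxcl12. The sum of the 19 endothelial markers had the same order, and that of megakaryocyte and platelet markers was also lowest in replicate 2 of each sex. The order therefore cannot tell these cell types apart, and the part of stromal cells in Cxcl14 was not tested. The transmembrane ligand Cxcl16 had 14.4, 21.9 and 15.1 CPM in females and 14.1, 18.3 and 16.7 in males, with no separation. Its exons overlap Med11 and Zmynd15 on the other strand. Cx3cl1, or fractalkine, which endothelium carries on its membrane as an adhesion molecule, had 5.96, 2.19 and 4.41 CPM in females and 3.99, 2.15 and 4.20 in males, again without separation. Cxcl13, which draws B cells into follicles, had 0.875, 0.341 and 1.79 CPM in females and 0.171, 0.0812 and 0.401 in males. Female replicate 2 lay below male replicate 3, so these overlapped. The log2 fold change was -2.19 (SE 0.74), with an adjusted p of 0.357 in edgeR. Male counts were 9, 4 and 19, and the gene passed the filter through the females, where it is higher.

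Neutrophil attractants of the CXC family, the ligands with the ELR motif, were low among the genes of the rule. Cxcl1, Cxcl3 and Cxcl15 did not pass the filter. Cxcl2 had between 0.416 and 2.03 CPM and Cxcl5 between 0.0422 and 0.873, and both overlapped between the sexes. Ppbp, an ELR ligand of platelets whose symbol falls outside the rule, was higher, with 73.4, 10.4 and 34.6 CPM in females and 26.1, 7.79 and 24.6 in males, which overlapped. It is 1 of the 8 megakaryocyte and platelet markers.

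The ligands linked to type 2 responses were also low. Ccl22, which attracts Ccr4-bearing T cells and is made by dendritic cells and macrophages, had 1.32, 2.31 and 1.34 CPM in females and 0.721, 0.751 and 0.759 in males. The male libraries lay close together below all females (log2 fold change -1.15, SE 0.37), at an adjusted p of 0.336 in edgeR. The 8 dendritic cell markers summed to 1582 to 2328 CPM in females and 1424 to 1682 in males, which overlapped. Ccl24 had 0.386 to 1.00 CPM, without separation of the sexes. Ccl11 and Ccl26, the other eotaxins, did not pass the filter.

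Of the homing CC ligands, which place lymphocytes in organs, Ccl27a had 1.73, 2.46 and 1.28 CPM in females and 3.08, 3.39 and 2.95 in males. All males were above all females (log2 fold change 0.78, SE 0.31, adjusted p 0.436 in edgeR). Ccl27a has a near-identical copy, Ccl27al, at 0.358 to 0.649 CPM with overlapping sexes, and the counting could have divided reads between the copies, so the values of this pair are uncertain. Ccl19, a ligand of Ccr7 with related pseudogenes, had 3.09, 2.35 and 1.98 CPM in females and 1.37, 4.38 and 4.57 in males, and male replicate 1 was the lowest of all. Ccl25, the ligand of Ccr9, had 0.916 to 1.94 CPM, and Ccl21f at most 0.337. Xcl1, which T and NK cells make, had 1.18 to 3.12 CPM, and the sexes overlapped.

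Among the receptors of the rule, Ccr3 led. Cxcr2 and Cxcr4, which the rule leaves out, had means of 230 and 171 CPM with 3046 and 1822 bases of exons. Ccr3 had 193 CPM with 3272 bases, so both were above it per kilobase. Per kilobase of exons, Ccr3 had a mean of 59.1 CPM (range 41.2 to 71.4), Ccr7 34.1 (27.6 to 45.1), Cxcr5 25.5 (21.5 to 34.5), Ccr1 22.4 (14.1 to 36.7), Ccr6 5.94 (4.84 to 7.96), Ackr1 4.52 (1.83 to 7.10) and Cxcr3 3.68 (2.87 to 4.67). The ranges of Ccr7, Cxcr5 and Ccr1 overlapped each other, and that of Ackr1 overlapped those of Ccr6 and Cxcr3. The ranges of Ccr3 and Ccr7 also overlapped, over the libraries of both sexes. This order of the leading 7 was the same with canonical transcript lengths. It is that of means over both sexes, and by the mean of each sex Cxcr5 was above Ccr1 in females and below it in males.

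**Figure D4:**
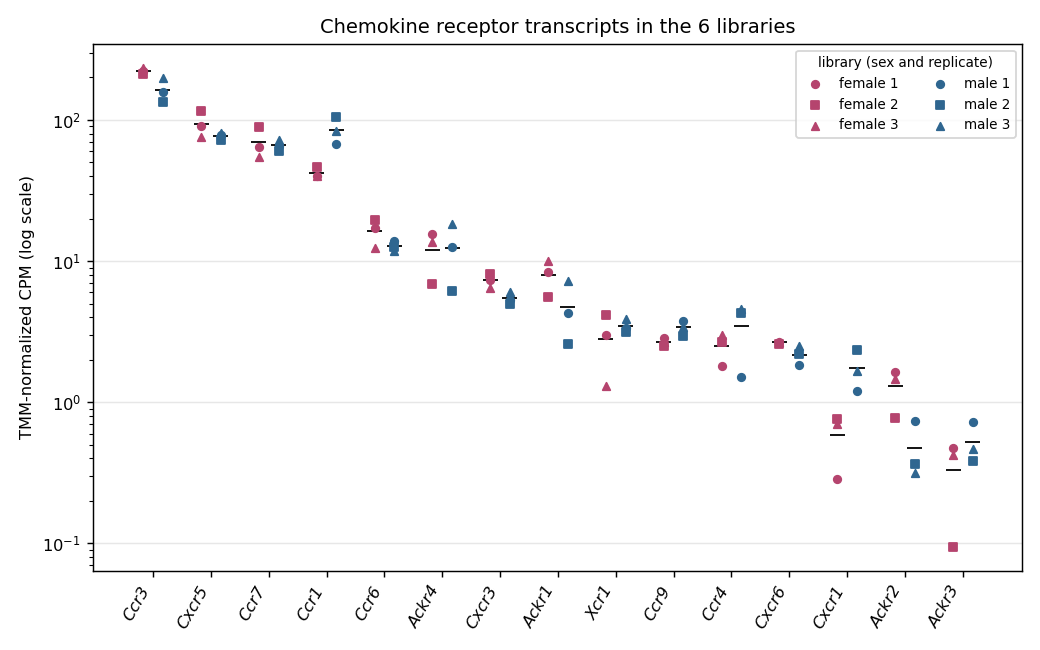
Level of 15 tested receptors in each library, in CPM after TMM scaling on a log axis, ordered by their mean, with 1 symbol per library (female red, male blue) and a line at the mean of each sex. Ccr1 was higher in all 3 males (67.6 to 104) than in any female (40.1 to 46.4), whereas Ccr3 was lower in all 3 males.

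Ccr1, the receptor of Ccl3, Ccl5, Ccl6 and Ccl9 on neutrophils, monocytes and osteoclast precursors, lies on chromosome 9 of GRCm39, 123762161 to 123768734, on the minus strand. It had 40.1, 46.4 and 40.2 CPM in the female libraries. In the males it had 67.6, 104 and 82.9 CPM, so that each was well above the highest female. The log2 fold change of 1.01 (SE 0.16) had an unadjusted p of 7.31e-05 and an adjusted p of 0.0547 in edgeR, just outside the threshold. In DESeq2 the adjusted p was 8e-06 with a log2 fold change of 1.01. Without male replicate 1, or without male replicate 3, edgeR called Ccr1 as well. With any other library left out it did not, at adjusted p-values between 0.130 and 0.291 in edgeR. The 12 of 15 neutrophil markers with all males above all females included S100a8, with 4334, 5224 and 5139 CPM in females and 7598, 12524 and 10615 in males. S100a8 stands here as an example, and the 12 markers did not share 1 order among the male libraries. Elane, Mpo and Prtn3, made early in neutrophil maturation, overlapped between the sexes. The 14 monocyte and macrophage markers summed to 5054 to 5274 CPM in females and 3576 to 4571 in males, with 8 of them higher in all females and 1, the monocyte gene Ly6c2, higher in all males. Over all genes, 14.5% were separated by sex. The part of these cells in the Ccr1, Ccl6 and Cxcr1 levels was not tested.

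Ccr3, the eotaxin receptor of eosinophils, lies 53274 bases from Ccr1, at 123822009 to 123831726 on the plus strand. It had 224, 211 and 234 CPM in females and 158, 135 and 199 in males. All males were below all females, though male replicate 3 came near to female replicate 2. The log2 fold change was -0.44 (SE 0.15), with an unadjusted p of 0.0142 and an adjusted p of 0.357 in edgeR. The ratio of Ccr1 to Ccr3 CPM was 0.180, 0.219 and 0.172 in females and 0.427, 0.773 and 0.417 in males. The fold changes of these neighbours had opposite signs in the same libraries, and the ratio was not tested. The eosinophil granule genes Epx and Prg2 had lower mean levels in males too: Epx had 5.28, 7.59 and 10.5 CPM in females and 5.14, 2.38 and 4.43 in males, and Prg2 had 62.0, 70.2 and 86.2 in females and 58.3, 35.6 and 65.2 in males. Male replicate 2 was the lowest library for Ccr3, Epx and Prg2 alike. These 2 genes were picked from the list of 7 markers of mast cells, basophils and eosinophils, whose sum overlapped between the sexes (140 to 194 CPM in females and 128 to 153 in males) and in which Mcpt8 was higher in all males. The part of eosinophils in Ccr3 was not tested.

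Ccr9, Cxcr6 and Xcr1 lie on chromosome 9 as well. Among the receptors there, Ccr1 and Ccr9 were higher in all males and Ccr3, Cxcr6 and Ackr2 were higher in all females. Ccr9, which guides T cell precursors and plasmacytoid dendritic cells, had 2.83, 2.52 and 2.68 CPM in females and 3.76, 2.96 and 3.44 in males (log2 fold change 0.34, SE 0.25, adjusted p 0.703 in edgeR), and its exons overlap several other genes. Cxcr6, the receptor of Cxcl16, had 2.69, 2.59 and 2.68 CPM in females and 1.84, 2.19 and 2.49 in males (log2 fold change -0.29, SE 0.27, adjusted p 0.767 in edgeR). Neither had an unadjusted p under 0.05 in edgeR. Xcr1, the Xcl1 receptor of cross-presenting dendritic cells, ranged from 1.30 to 4.14 CPM, and the sexes overlapped.

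Ccr7, Cxcr5 and Ccr6, receptors that guide lymphocytes, were among the most abundant of the rule. Other receptors of lymphocytes were lower, such as Cxcr3 with a mean of 6.37 CPM and Ccr4 with 2.97. Ccr7, which brings naive T cells, B cells and mature dendritic cells to lymphoid organs, had 64.3, 89.6 and 54.8 CPM in females and 65.5, 60.4 and 71.8 in males. Cxcr5, the receptor of Cxcl13 on B cells, had 90.4, 115 and 75.1 in females and 77.7, 71.8 and 80.8 in males. Ccr6, carried by B cells and some T cells, had 17.2, 19.5 and 12.4 in females and 13.8, 12.5 and 11.8 in males. In all 3, female replicate 2 was the highest library and the sexes overlapped, with log2 fold changes of -0.08 (SE 0.17), -0.28 (SE 0.15) and -0.37 (SE 0.18) in edgeR. The 9 B lineage markers in the table summed to 3011 to 3434 CPM in females and 2967 to 3446 in males, also without separation. Of their ligands, Ccl20, the ligand of Ccr6, had no count, and per kilobase of exons Cxcl13 and Ccl19 had means of 0.530 and 3.41 CPM, the latter at rank 8 of the 36 ligands. The Ccl21 genes without a match, which encode further ligands of Ccr7, were not analysed here.

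Cxcr3, the receptor of Cxcl9, Cxcl10 and Cxcl11 on activated T cells, lies on the X chromosome and had 7.35, 8.08 and 6.45 CPM in females and 5.28, 4.97 and 6.07 in males. All males were below all females, and the log2 fold change was -0.42 (SE 0.20) with an adjusted p of 0.523 in edgeR. The 11 T and NK cell markers summed to 90.1 to 108 CPM in females and 79.3 to 97.0 in males, which overlapped. Ccr4, the receptor of Ccl17 and Ccl22, ranged from 1.50 to 4.60 CPM with overlapping sexes. Cxcr1, a receptor of neutrophil attractants on mature neutrophils, had 0.286, 0.757 and 0.703 CPM in females and 1.20, 2.35 and 1.67 in males. It had the highest log2 fold change of the 41 genes, 1.58 (SE 0.46), with an adjusted p of 0.285 in edgeR and 0.0668 in DESeq2. Male replicate 2 was the highest library for Cxcr1, as for Ccr1.

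The atypical receptors differ in where they are made. Ackr1, which venular endothelium and erythroid cells carry, had 8.40, 5.58 and 9.97 CPM in females and 4.29, 2.58 and 7.27 in males. Replicate 2 was the lowest in each sex, and the sexes overlapped (log2 fold change -0.76, SE 0.36, adjusted p 0.523 in edgeR). The sum of the 19 endothelial markers had the same order within each sex, with 578, 405 and 591 CPM in females and 323, 245 and 365 in males. Not every marker followed it: Pecam1 was lowest in replicate 3 of each sex. The sum of stromal and osteoblast lineage markers had this order too. The exons of Ackr1 overlap those of Cadm3 on the same strand. Ackr2, a scavenger of inflammatory CC chemokines found on lymphatic endothelium and some leukocytes, had 1.64, 0.776 and 1.47 CPM in females and 0.740, 0.365 and 0.316 in males. The groups did not overlap, although female replicate 2 and male replicate 1 were close, and the log2 fold change was -1.44 (SE 0.49) with an adjusted p of 0.357 in edgeR. Ackr4, a scavenger of Ccl19, Ccl21 and Ccl25, had 15.5, 6.89 and 13.6 CPM in females and 12.7, 6.09 and 18.3 in males. Replicate 2 was again the lowest in each sex, and the sex difference was smaller than its error (log2 fold change 0.04, SE 0.40 in edgeR). Its exons overlap Acad11 on the other strand. Ackr3, a scavenger of Cxcl12, ranged from 0.0946 to 0.721 CPM. Endothelial marker sums were higher in all females, with 5 of the 19 genes (Tek, Tie1, Eng, Sox17 and Stab2) separated by sex, against 14.5% of all genes. At an unadjusted p under 0.05 in edgeR, 14 of the 19 were lower in males, against 9.79% of all genes in either direction. The median log2 fold change of the 19 was -1.12, and DESeq2 called 6 of them, against 2.04% of all genes. The part of endothelial cells in the Ackr1 and Ackr2 levels was not tested.

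**Figure D5:**
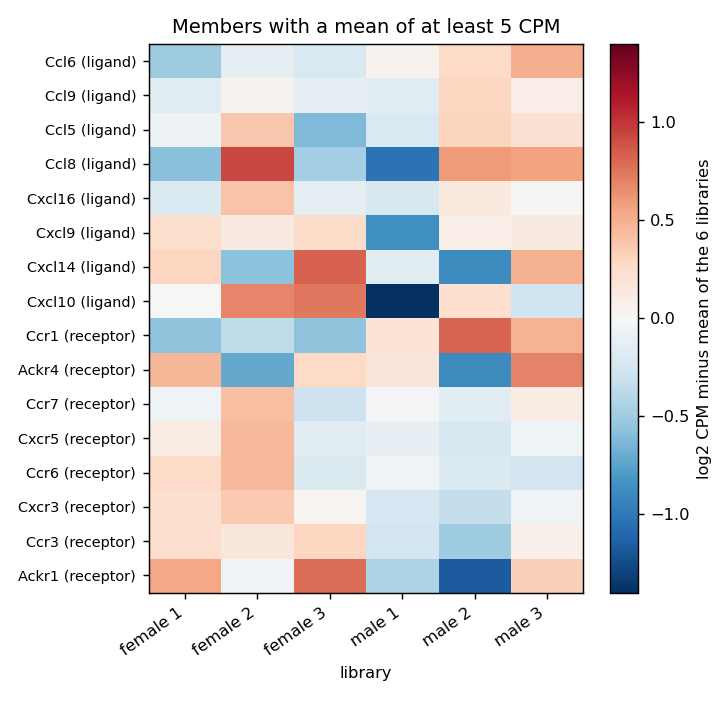
Log2 CPM of 16 genes with a mean of at least 5 CPM, each less its mean over the 6 libraries, in the 3 female and 3 male libraries, with red above and blue below that mean and rows ordered by the fold change, males over females, within ligands and receptors. Ccr1 and Ccl6 were red in the 3 male columns and blue in the 3 female columns, and Cxcl14, Ackr4 and Ackr1 were lowest in replicate 2 of each sex.

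Other genes of the chemokine system were read from a list of 37, all tested, with binding partners, G proteins, arrestins, kinases, proteases and the 4 genes the rule leaves out. None had an adjusted p under 0.05 in edgeR, where 9 higher in males and 4 higher in females had an unadjusted p under 0.05, against 9.79% of all genes. The median log2 fold change of the 37 was 0.02. DESeq2 gave 4 at an adjusted p under 0.05, of which Cxcr2, Mmp8 and Mmp9 were higher in males and Gpr182 was higher in females, against 2.04% of all genes. Cxcr2, the main receptor of mouse neutrophils for ELR ligands, had 157, 176 and 160 CPM in females and 255, 324 and 310 in males (log2 fold change 0.85, SE 0.13, adjusted p 0.0547 in edgeR). The neutrophil proteases Mmp8 and Mmp9 had log2 fold changes of 0.70 (SE 0.12) and 0.55 (SE 0.15) in edgeR, with no overlap between the sexes. Gpr182, an atypical chemokine receptor of sinusoidal and lymphatic endothelium, had 8.06, 4.82 and 10.5 CPM in females and 2.33, 1.10 and 4.03 in males, a log2 fold change of -1.65 (SE 0.44) with an adjusted p of 0.244 in edgeR. Rarres2, the gene of the attractant chemerin, overlapped between the sexes with 24.6, 15.7 and 29.9 CPM in females and 9.11, 7.27 and 19.6 in males.

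Cxcl12, the stromal ligand that holds blood precursors in marrow, had 2214, 1090 and 2350 CPM in females and 1352, 928 and 1924 in males, with replicate 2 lowest in each sex, as for Cxcl14 and Ackr4. Its receptor Cxcr4 had 151, 148 and 169 CPM in females and 193, 182 and 183 in males, without overlap but with an adjusted p of 0.499 in edgeR. Ccr2, the monocyte receptor of Ccl2, had 50.7, 50.1 and 60.6 CPM in females and 61.5, 57.0 and 69.2 in males, which overlapped.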

How the data were processed

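Sequencing had been done on RNA of BECs from 12-week mice, 3 female and 3 male libraries. The authors deposited whole-number read counts per gene and library, without normalization or pooling. Sources for these counts differ: the methods of the study name STAR, GRCm39, featureCounts, 100-nucleotide reads and a total RNA kit, whereas the submitters' processing notes name TopHat2 2.0.11, featureCounts and mm9 (NCBIM37), and the labels name a directional kit, polyA RNA and 40-nucleotide reads. The annotation release and strand setting are not given in the sources used here, so overlapping genes can share reads. GENCODE M39 on GRCm39 matched 31073 of 37991 identifiers, and the 6918 others stayed in the fit without a symbol.

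Males were compared with females by edgeR 4.0.16 in R 4.3.3 (TMM, default filter by sex, robust quasi-likelihood test, Benjamini-Hochberg adjustment over 19480 genes, threshold 0.05). A standard error (SE) is the size of a log2 fold change over the root of its F statistic. CPM are counts scaled for library size by TMM, and levels per kilobase use the summed exons. DESeq2 1.42.0 was an alternative, and it gave no adjusted p for 2306 genes, 3 of them chemokine genes. On simulated counts of 19480 genes for this comparison, edgeR recovered 55% of 2-fold and 91% of 4-fold changes, with 13 false calls among 159. The changes were put only into genes past a minimum mean count, so the shares do not cover genes below it. Counts were drawn without any effect shared by libraries of the same number.

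The genes, lists and naming rule were chosen with earlier results of these data known. Named in full were genes past the threshold in edgeR, in edgeR with a replicate block or in DESeq2, those at an unadjusted p under 0.05 in edgeR, and the 10 ligands and 8 receptors with the highest mean CPM. The values of 1 gene that enters the counts are not reported here. Ccr9, Cxcr6 and Ackr1 were named outside this rule after their values were seen. Alternatives were DESeq2, other size factors, total counts alone, other filters on low counts, the replicate block, non-robust estimation and each library left out.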

Additional observations from a re-analysis of the deposited data

How the results depend on the processing

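Among all genes, edgeR called 8 at an adjusted p under 0.05. The count was 14 with total counts alone, 98 with no filter on low counts and 350 in DESeq2, and it lay between 5 (without female replicate 2) and 96 (without male replicate 3) when 1 library was left out. Among the chemokine genes the count of 0 became 2 in DESeq2 (Ccl6 and Ccr1) and 1 with no filter (Ccr1), and lay between 0 and 1 with 1 library left out, the 1 being Ccr1 without male replicate 1 or 3. Among the 37 other genes of the system the count of 0 became 4 in DESeq2, 1 with total counts alone and 2 with no filter, and lay between 0 and 3 with 1 library left out, the 3 being without male replicate 3. For the results listed here the cause was not tested. Other size factors in edgeR, at least 10 counts in every library, and non-robust estimation left each of these counts within 1.5 times the first value.

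With the replicate number as a replicate block, edgeR called 428 genes, 2 of them chemokine genes (Ccl6 and Ccr1) and 4 among the other genes of the system, and DESeq2 with the replicate block called 731, 7 and 8. The 7 chemokine genes were Ccl6, Ccr1, Ackr1, Ccr3, Cxcl10, Cxcl13 and Cxcr1. Only this fit called Ackr1, Ccr3, Cxcl10, Cxcl13 and Cxcr1. The correlations of same-numbered libraries, as deviations from the mean of their sex, were 0.194, 0.0402 and 0.298. Each female library correlated best with the male library of its number, though female replicate 2 had 0.0373 with male replicate 1. Male replicate 2, by contrast, correlated best with female replicate 1, at 0.131. Whether the numbers pair the libraries was not settled by these values, and the main fit has no block.

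Of the 23 genes that the naming rule picks, 17 kept their direction in every alternative that gave a value. Cxcl13 gave none with at least 10 counts in every library. The log2 fold change of Ackr4 turned to -0.00605 with total counts alone, -0.0138 with the replicate block and -0.00936 with DESeq2 and the block. With 1 library left out, values that included a turn ran from -0.36 to 0.36 for Ackr4, from -0.18 to 0.73 for Ccl8, from -0.055 to 0.43 for Ccl5, from -0.22 to 0.15 for Ccr7, from -0.59 to 0.069 for Cx3cl1, and from -0.16 to 0.15 for Cxcl16. None of these 6 genes had an unadjusted p under 0.05. Over the alternatives, the adjusted p of Ccr1 ran from 1.43e-10 to 0.291 and that of Ccl6 from 0.000286 to 0.848. Leaving out female replicate 2 moved the log2 fold change of Cxcr5 from -0.28 to -0.11 and that of Ccr6 from -0.37 to -0.22, and leaving out male replicate 1 moved that of Cxcl10 from -0.84 to -0.51. Those of Ccl19 and Ccl9 ran from 0.21 to 0.85 and from 0.06 to 0.27 over the alternatives.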
